A study of Homo sapiens with 3 samples.

Results

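The genes described here are 39 glycolysis and hypoxia response genes, listed by name: 23 enzymes and transporters of glucose use, and 16 genes of the hypoxia response. They were found on the array through the transcript accession of each probe. Of the 39 genes, 38 had a matched probe and 36 had a probe bright enough to compare, out of 12031 such genes among the 21612 with a matched probe. No probe was matched to *ALDOA*, an aldolase of glycolysis. The probes of *CA9* and *EGLN3* were too dim on at least 1 array and are given apart.

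HCT116, a human colon cancer cell line, was transfected at 10 nM with 1 of 3 siRNAs, namely control siRNA, siRNA #7 or siRNA #8, using the lipid reagent Lipofectamine RNAiMax, and RNA was taken after 48 h. Both siRNAs were designed against *HOXA5* short RNA, a short transcript from the *HOXA5* locus. All 3 groups therefore carried an siRNA and the reagent, and no untransfected cells were compared. Each group was 1 sample on 1 whole-genome array with 400 ng of input RNA, so no comparison has a replicate check and no p-value is given for a single gene.

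The siRNAs are shown because they overlap: the 17 bases in capitals are common to both, out of 21 bases in each, so they are not independent sequences.
siRNA #7: gagaAACUGAAAGACAACAUA
siRNA #8: AACUGAAAGACAACAUAggcg

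Glycolysis splits glucose into pyruvate, and tumour cells commonly turn much of that pyruvate into lactate and export it. In low oxygen the transcription factor HIF1A escapes hydroxylation by the EGLN enzymes and degradation, pairs with ARNT, and raises transcription of glycolytic enzymes and of genes for vessel growth, mitochondrial removal and collagen processing. HIF1A is controlled largely at the level of its protein, which an RNA array does not measure.

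Intensities are given as deposited, with the background subtracted and no scaling. The 75th percentile of the gene probes was 52.8 in control cells, 42.1 in siRNA #7-treated cells and 42.8 in siRNA #8-treated cells, so ratios are given as log2 differences after that percentile was set equal on all arrays. The error beside a ratio is the SD expected from spot to spot on an array, taken from probes printed 10 times. It covers printing and hybridisation only, and not the spread between cultures. Between 19069 and 20473 probes were well above background on an array, and no spot was saturated. On each array 7 of 8 colon epithelial markers were well above background, *CDH17* being the exception, against 3, 3 and 4 of 12 markers of blood, vessel, stromal, liver and glial cells. The *HOXA5* probe of the array read 84.9, 52.6 and 58.5 in the same order, log2 ratios of -0.36 ± 0.25 and -0.23 ± 0.26 to control. Whether that probe reads the short RNA is not given in the sources used here.

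The hypoxia genes were mostly lower with both siRNAs. The glycolysis genes were also mostly lower with siRNA #7, with a median nearer to that of all genes, and were mixed with siRNA #8. In siRNA #7-treated cells the 36 genes had a median log2 ratio of -0.25, and 27 were lower than with control siRNA, against a median of 0.013 and 48.6% lower among all 12031 genes. In siRNA #8-treated cells the median was -0.40 and 25 were lower, against 0.0071 and 49.2% of all genes. The 14 hypoxia genes had medians of -0.51 and -0.66, and 11 (78.6%) and 12 (85.7%) were lower. The medians of the 22 glycolysis genes were -0.19 and -0.092, and 16 (72.7%) and 13 (59.1%) were lower. Both comparisons use the same control array, so the 2 sets of ratios are not separate observations.

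Past 1.5-fold, 9 of the 36 genes (25%) were lower with siRNA #7, against 6.95% of all genes, and 2 (5.56%) were higher, against 7.51%. With siRNA #8, 14 (38.9%) were lower, against 10.2% of all genes, and 0 were higher, against 7.79%. Past 2-fold, *ANKRD37* and *ANGPTL4* were lower with siRNA #7, against 1.72% of all genes, and *HIF1A*, *ENO2* and *PFKFB4* were lower with siRNA #8, against 3.03%. No gene of the list was 2-fold higher with siRNA #7 or siRNA #8, where 2.04% and 1.95% of all genes were. All these ratios hold relative to the other genes on an array. The arrays were also set equal on 10 probes for the E1A spike-in RNA. That moved every ratio by -0.32 with siRNA #7 and -0.24 with siRNA #8, and the median of all genes to -0.31 and -0.23. Of the 36 genes, 33 and 34 were then lower, against a share of at least 0.81 and 0.73 of all genes. The exceptions were *SLC2A1*, *PFKL* and *VEGFA* with siRNA #7 and *HK1* and *LDHB* with siRNA #8.

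**Figure D1:**
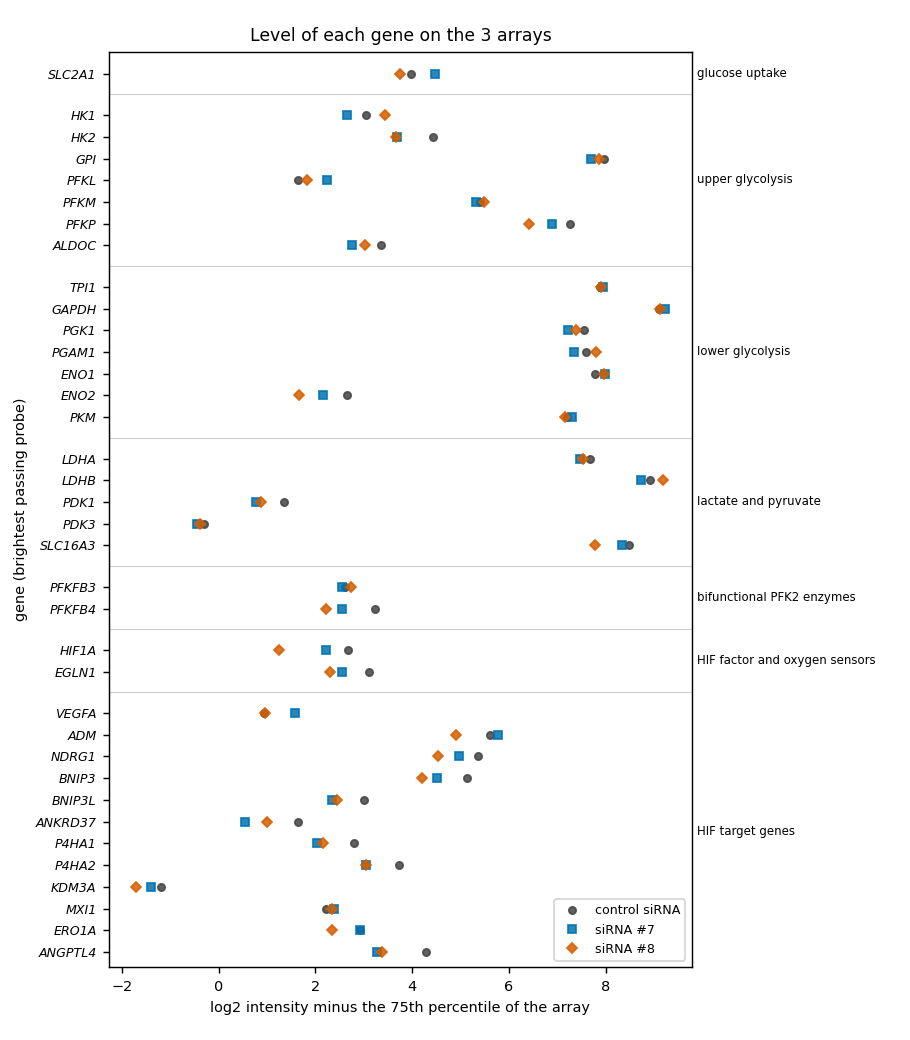
Level of each of the 36 genes (rows, grouped by role) on the 3 arrays: log2 intensity minus the 75th percentile of that array, for the brightest passing probe. Most hypoxia genes lie to the left of the control point with both siRNAs, while *TPI1*, *GAPDH*, *ENO1* and *PKM* lie close to it; levels of different genes are read by different probes and are not comparable.

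Glucose enters the cell through transporters, of which *SLC2A1* (GLUT1) is the common one. Its probe read 826 in control cells, 933 in siRNA #7-treated cells and 576 in siRNA #8-treated cells. The highest reading was with siRNA #7 and the lowest with siRNA #8. The log2 ratio to control was 0.50 ± 0.15 with siRNA #7 and -0.22 ± 0.17 with siRNA #8, neither past 1.5-fold.

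Hexokinases trap glucose as glucose 6-phosphate. *HK2*, the isozyme often raised in tumours, read 1134 in control cells, 540.0 in siRNA #7-treated cells and 546 in siRNA #8-treated cells. Both siRNA arrays were low and close to each other, 1.68-fold below control on each after scaling (log2 ratios of -0.75 ± 0.15 and -0.75 ± 0.17). When probes printed within 3 rows and columns were used to remove local brightness, the siRNA #7 ratio was -0.55 and no longer past 1.5-fold. Another *HK2* probe was below the detection flag on all 3 arrays. *HK1*, the more widely expressed hexokinase, read 439, 266 and 465, with ratios of -0.39 ± 0.15 with siRNA #7 and 0.39 ± 0.17 with siRNA #8. After scaling, the control array lay between the siRNA arrays, siRNA #7 being the lower and siRNA #8 the higher.

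Phosphofructokinase commits sugar to glycolysis, and its subunits differed. *PFKP*, the platelet-type subunit, read 8088 in control cells, 4961 in siRNA #7-treated cells and 3639 in siRNA #8-treated cells, ratios of -0.38 ± 0.14 and -0.85 ± 0.15. Both siRNA arrays were below control, siRNA #8 the lower, and another *PFKP* probe gave -0.43 and -0.71. *PFKL*, the liver-type subunit, was 0.59 ± 0.16 higher with siRNA #7 and 0.18 ± 0.18 with siRNA #8; the siRNA #7 value was 0.22 after another background correction (normexp). *PFKM*, the muscle-type subunit, stayed within 0.10 of control on the log2 scale with both.

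*PFKFB4* and *PFKFB3* make and break fructose 2,6-bisphosphate, the activator of phosphofructokinase. *PFKFB4* read 496 in control cells, 246 in siRNA #7-treated cells and 200.4 in siRNA #8-treated cells. Both siRNA arrays were below control, by 1.61-fold and 2.0-fold after scaling (log2 ratios of -0.69 ± 0.15 and -1.0 ± 0.18). The siRNA #8 ratio lay just at 2-fold, and was -0.95 with the percentile over probes well above background, -0.96 with quantile normalization and -0.99 after removal of local brightness. *PFKFB3* had ratios of -0.07 and 0.12. Further along, *GPI*, the isomerase before this step, had ratios of -0.26 and -0.11. *ALDOC*, an aldolase known from brain, read 542, 284 and 350.4, which gave -0.61 ± 0.15 and -0.33 ± 0.17. Removal of local brightness left the siRNA #7 ratio of *ALDOC* at -0.48, short of 1.5-fold.

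The 7 genes of the later part of glycolysis, from the triose phosphates to pyruvate, had medians of 0.065 and 0.011, near those of all genes. *GAPDH*, printed 10 times, read 29000 in control cells, 25226 in siRNA #7-treated cells and 23689 in siRNA #8-treated cells, with ratios of 0.12 ± 0.05 and 0.01 ± 0.05. Its unscaled reading was lower on both siRNA arrays, as the 75th percentile was, and on the spike-in scale its direction is turned with both siRNAs. *ENO1* had ratios of 0.20 and 0.18, and *PKM*, the pyruvate kinase gene of tumour cells, 0.11 and -0.04.

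*PGK1*, the first ATP-making enzyme of the pathway and a known HIF target, was also printed 10 times and read 9941 in control cells, 6242 in siRNA #7-treated cells and 7107 in siRNA #8-treated cells. Its ratios were -0.35 ± 0.05 and -0.18 ± 0.05, and the siRNA #7 spots, scaled to the array, lay below every control spot. *PGAM1*, a mutase, had ratios of -0.25 and 0.21, and *TPI1*, the triose isomerase, 0.07 and 0.02, although another *TPI1* probe gave 0.13 and -0.59.

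*ENO2*, the neuronal enolase, stood apart from *ENO1*. It read 334 in control cells, 187 in siRNA #7-treated cells and 135 in siRNA #8-treated cells, ratios of -0.51 ± 0.16 and -1.01 ± 0.18. The arrays were in the order control, siRNA #7, siRNA #8, and *ENO2* was 2.01-fold below control with siRNA #8. That ratio was short of 2-fold with normexp (-0.90), with the percentile taken over probes well above background (-0.96) and with quantile normalization (-0.99).

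Of the 5 genes that steer pyruvate and lactate, all 5 were lower with siRNA #7 and 4 with siRNA #8, where 48.6% and 49.2% of all genes were lower. Past 1.5-fold, 0 of the 5 were lower with siRNA #7 and 1 with siRNA #8, against 6.95% and 10.2% of all genes. *SLC16A3* (MCT4), which exports lactate, read 18876 in control cells, 13676 in siRNA #7-treated cells and 9355 in siRNA #8-treated cells. Its ratio was -0.14 ± 0.14 with siRNA #7 and -0.71 ± 0.15 with siRNA #8, the latter -0.48 after removal of local brightness. *PDK1*, a kinase that shuts off pyruvate dehydrogenase, read 135, 72.1 and 78.9. Its ratio was -0.58 ± 0.19 with siRNA #7, just short of 1.5-fold, and -0.47 ± 0.21 with siRNA #8. *PDK3*, a related kinase, was dim and had ratios of -0.14 ± 0.33 and -0.07 ± 0.34, within the spot-to-spot SD.

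The lactate dehydrogenase subunits were read by more than 1 probe each, and the probes differed. For *LDHA*, which favours lactate formation, the brightest probe gave -0.20 and -0.14 and the other -0.67 and -0.56. For *LDHB* the brightest probe read 25525, 17956 and 24736, ratios of -0.18 and 0.26. The other *LDHB* probe, designed on another transcript, read 870.1 in control cells, 1762 in siRNA #7-treated cells and 2186 in siRNA #8-treated cells, ratios of 1.34 and 1.63. It was the control array that was low here, and the probes printed around this one had median ratios of 0.52 and 0.61. Of the 9 genes with more than 1 passing probe, 7 had the same sign on every probe with siRNA #7 and 7 with siRNA #8. Several genes of this pathway also have near-identical pseudogene copies, and hybridisation to their transcripts was not tested.

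**Figure D2:**
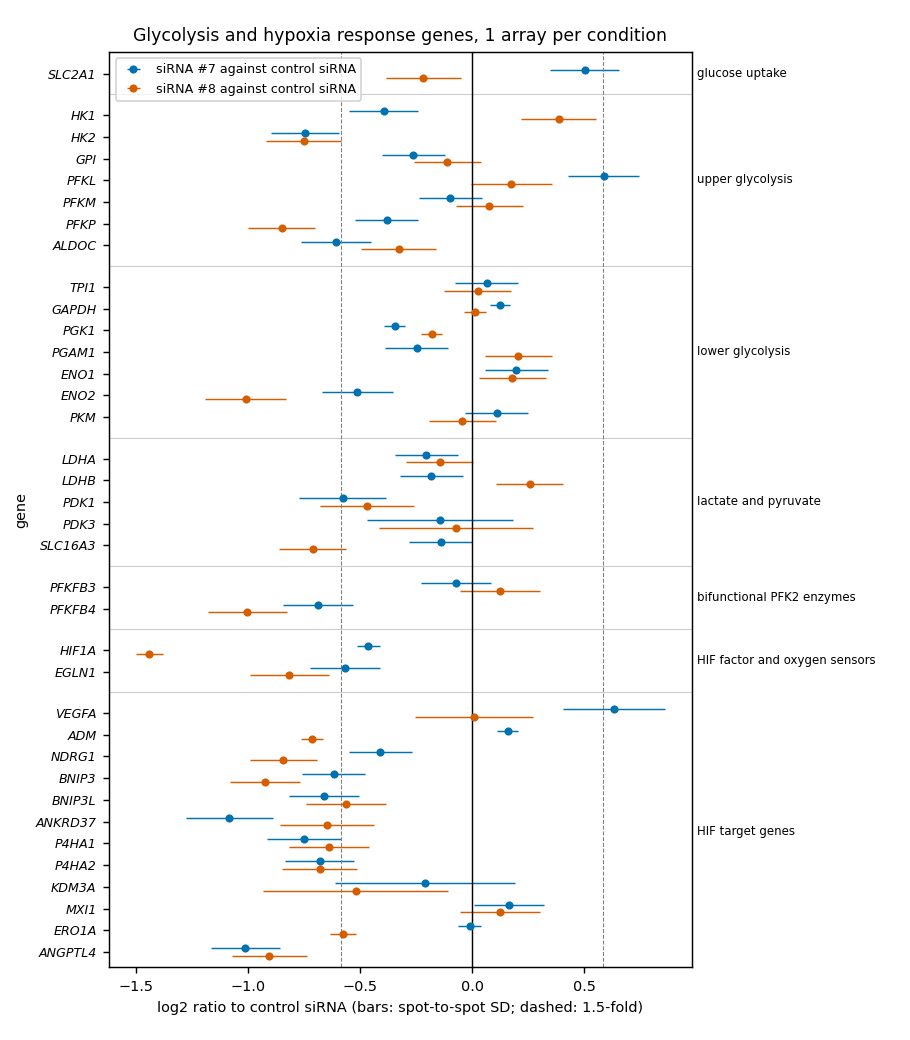
Log2 ratio to control siRNA of each of the 36 genes (rows, grouped by role), for siRNA #7 (blue) and siRNA #8 (orange), with the spot-to-spot SD as bars and dashed lines at 1.5-fold. The lowest ratio is that of *HIF1A* with siRNA #8 (-1.44), and 14 orange points lie left of the 1.5-fold line against 9 blue ones.

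*HIF1A*, the oxygen-regulated subunit of the factor itself, had the lowest ratio of the list with siRNA #8. Its probe, printed 10 times, read 338 in control cells, 196 in siRNA #7-treated cells and 101 in siRNA #8-treated cells. After scaling it was 1.38-fold below control with siRNA #7 (log2 ratio of -0.46 ± 0.05) and 2.71-fold below with siRNA #8 (-1.44 ± 0.06). The 8 unflagged spots of the control array read 312 to 360 (rounded to whole units), the 10 of siRNA #7 155 to 221, and the 10 of siRNA #8 85.1 to 110 (rounded likewise). No spot of one array overlapped a spot of another, although spots of 1 array share 1 RNA sample and do not replicate the treatment. Another *HIF1A* probe read 31.1, 11.7 and 5.88 and was not well above background with siRNA #8. The siRNA #8 reading was at least 3.31-fold below control, while the log2 ratio of siRNA #7 to control was -1.09 on this probe.

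The EGLN enzymes hydroxylate HIF1A in normal oxygen, and *EGLN1* and *EGLN3* are themselves HIF targets. *EGLN1* read 455 in control cells, 245 in siRNA #7-treated cells and 209.7 in siRNA #8-treated cells. Both siRNA arrays were below control, with log2 ratios of -0.57 ± 0.15 and -0.82 ± 0.18. *EGLN3* was dim, at 16.4, 3.09 and 13.8, and not well above background with siRNA #7. The siRNA #7 reading was at least 1.78-fold lower than that of control cells, while the log2 ratio of siRNA #8 to control was 0.06. The *CA9* probe, for the carbonic anhydrase widely used as a hypoxia marker, read 2.85, 1.62 and 1.62 and was below the detection flag on all arrays, so no ratio is given.

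**Figure D3:**
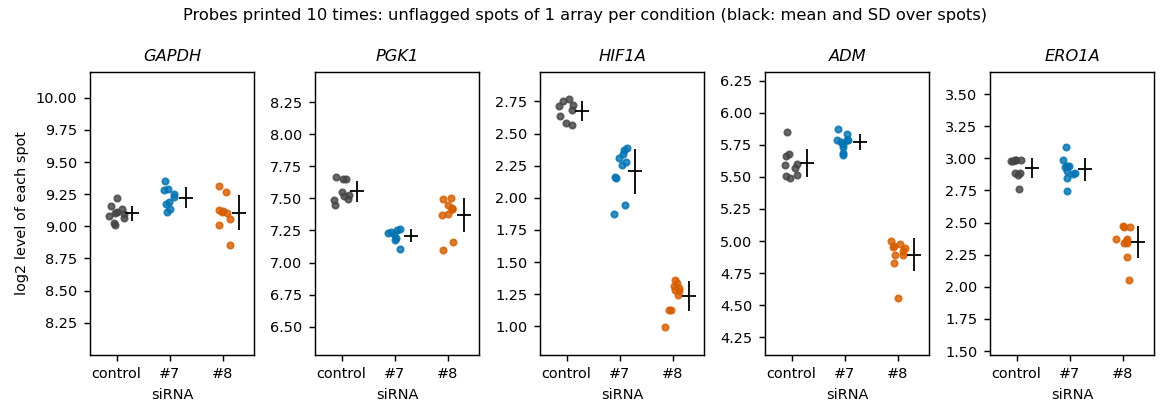
Unflagged spots of the 5 genes whose probe was printed 10 times, as log2 level (intensity minus the 75th percentile of the array), with the mean and SD over spots in black; each panel spans the same log2 range. *HIF1A* separates into 3 levels, *ADM* and *ERO1A* are low with siRNA #8 alone, and *GAPDH* overlaps on all arrays.

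Of the 12 HIF target genes with a passing probe, 9 were lower with siRNA #7 and 10 with siRNA #8, against 48.6% and 49.2% of all genes, with medians of -0.51 and -0.64. Past 1.5-fold lower were 6 (50%) and 7 (58.3%), against 6.95% and 10.2% of all genes. *ANGPTL4*, a secreted inhibitor of lipoprotein lipase, read 1029 in control cells, 407 in siRNA #7-treated cells and 446 in siRNA #8-treated cells. Both siRNA arrays were well below control, by 2.02-fold and 1.87-fold (log2 ratios of -1.01 ± 0.15 and -0.90 ± 0.17). *ANKRD37*, an ankyrin repeat gene often used in hypoxia signatures, read 164, 61.9 and 85.1, with ratios of -1.08 ± 0.19 and -0.65 ± 0.21. After the normexp background correction these were -0.59 and -0.36, no longer past 2-fold with siRNA #7 or past 1.5-fold with siRNA #8. The siRNA #7 ratio of *ANGPTL4* was -0.91 after removal of local brightness, also short of 2-fold.

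*P4HA1* and *P4HA2* encode the catalytic subunits of the collagen prolyl hydroxylases. *P4HA1* read 366 in control cells, 174 in siRNA #7-treated cells and 190.4 in siRNA #8-treated cells, ratios of -0.75 ± 0.16 and -0.64 ± 0.18. *P4HA2* read 696, 347 and 352, ratios of -0.68 ± 0.15 and -0.68 ± 0.17. For both genes the siRNA arrays were close to each other and below control. The siRNA #7 ratio of *P4HA2* was -0.52 after removal of local brightness.

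*BNIP3* and *BNIP3L* mark mitochondria for removal. *BNIP3* read 1849 in control cells, 962 in siRNA #7-treated cells and 789 in siRNA #8-treated cells, ratios of -0.62 ± 0.14 and -0.92 ± 0.16. The probes printed around it had a median ratio of -0.47 on the siRNA #8 array, and its own ratio there was -0.45 after they were removed. *BNIP3L* read 426, 215 and 234, ratios of -0.66 ± 0.15 and -0.56 ± 0.18, and another probe gave -0.77 and -0.68. On every probe of this pair the control array was the high one.

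Other targets differed between the siRNAs. *NDRG1*, a stress-induced growth regulator, read 2180.2, 1311 and 986, ratios of -0.41 ± 0.14 and -0.84 ± 0.15. *ADM*, which encodes the vasodilator peptide adrenomedullin, read 2582 in control cells, 2299 in siRNA #7-treated cells and 1277 in siRNA #8-treated cells. Its ratio was 0.16 ± 0.05 with siRNA #7 and -0.71 ± 0.05 with siRNA #8, and every siRNA #8 spot lay below every spot of the other arrays. *ERO1A*, an oxidase that forms disulfide bonds in the endoplasmic reticulum, had a similar split, with ratios of -0.01 ± 0.05 and -0.57 ± 0.06.

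*VEGFA*, the main growth factor for vessels, read 101 in control cells, 126 in siRNA #7-treated cells and 82.8 in siRNA #8-treated cells, ratios of 0.63 ± 0.23 and 0.01 ± 0.26. On the brightest probes it was the only HIF target past 1.5-fold higher, and it was not so when its probes were averaged (0.43). Its other probe gave 0.22 and -0.80. *KDM3A*, a histone demethylase, was dim, and its ratios of -0.21 ± 0.40 and -0.52 ± 0.41 were near the spot-to-spot SD. *MXI1*, an antagonist of MYC, had ratios of 0.16 and 0.12 on its brightest probe. Another probe read 70.4, 170.3 and 132, ratios of 1.6 and 1.21, with neighbouring probes at 0.59 and 0.43. A dimmer probe gave 0.51 and 0.33. With its passing probes averaged, *MXI1* was past 1.5-fold higher with siRNA #7.

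**Figure D4:**
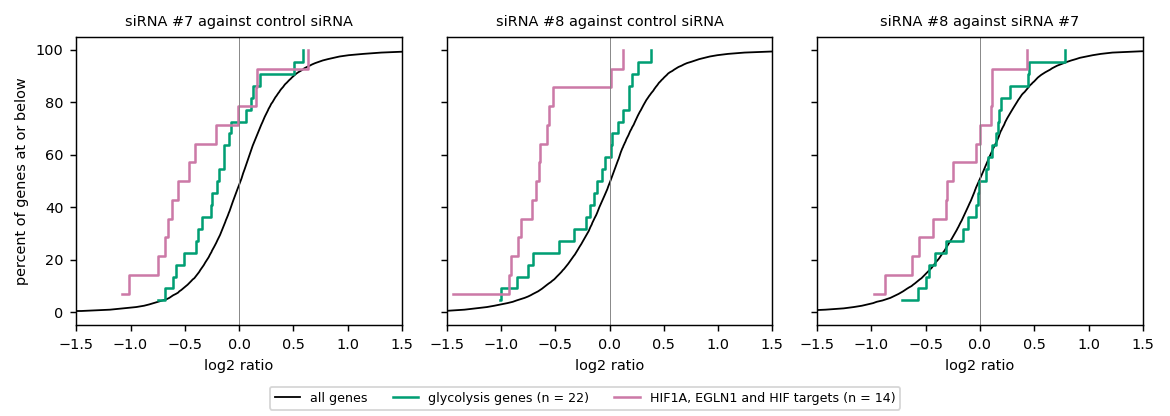
Percent of genes at or below each log2 ratio (the axis is limited to 1.5 either way) in the 3 comparisons, for all 12031 genes, the 22 glycolysis genes and the 14 hypoxia genes. The hypoxia curve lies left of all genes over most of its length in both comparisons with control siRNA, and the curves lie closer together in siRNA #8 against siRNA #7.

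The comparison of siRNA #8 with siRNA #7 does not use the control array. The median of the 36 genes was -0.03, against -0.01 for all genes. With siRNA #8, 20 (55.6%) were lower, against 51.0% of all genes. Past 1.5-fold, *HIF1A* (-0.98), *ADM* (-0.87), *SLC2A1* (-0.72) and *VEGFA* (-0.62) were lower with siRNA #8. These 4 are 11.1% of the genes, against 11.5% of all genes. *HK1* (0.78) was the 1 gene past 1.5-fold higher (2.78%), against 8.91% of all genes. None was past 2-fold, where 3.33% of all genes were lower and 2.29% higher. As shares of the list, the lower genes were thus near the background of all genes here.

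Genes of the same pathways outside the list gave medians closer to 0 than the HIF target genes of the list. Of 20 further hypoxia targets 12 had a passing probe, with medians of -0.28 and -0.29, and 11 and 9 were lower, against 48.6% and 49.2% of all genes. Past 1.5-fold lower were 4 (33.3%) with siRNA #7 and 2 (16.7%) with siRNA #8, against 6.95% and 10.2% of all genes. *GBE1*, the glycogen branching enzyme, printed 10 times, read 358 in control cells, 239 in siRNA #7-treated cells and 111 in siRNA #8-treated cells, ratios of -0.26 ± 0.05 and -1.38 ± 0.06. Like *HIF1A*, it was lowest with siRNA #8. The list did not share this, as 5 of the 12 (41.7%) were lower with siRNA #8 than with siRNA #7, against 51.0% of all genes. Of 14 other factors of the HIF pathway, such as *VHL*, 11 passed, with medians of -0.11 and -0.16. Their ratios ran both ways, from -0.87 to 0.42 with siRNA #7 and from -0.60 to 0.39 with siRNA #8. *ARNT* was not among the 11, as it was not well above background with siRNA #8. Of 30 other glycolytic isozymes and branch enzymes 18 passed, with medians of 0.13 and 0.12. Of these, 7 (38.9%) were lower with each siRNA, against 48.6% and 49.2% of all genes. Past 1.5-fold higher were 4 (22.2%) with siRNA #7 and 2 (11.1%) with siRNA #8, against 7.51% and 7.79% of all genes. Past 1.5-fold lower was 1 (5.56%) with each, against 6.95% and 10.2%.

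Promoters are shown because most HIF target genes were lower with both siRNAs, and HIF binds a short core sequence. The letters ACGTG and GCGTG were searched on both strands in the 250 bases before each transcript start in RefSeq (GRCh38.p14); CACGTG holds ACGTG on both strands and counts on each. The table holds 36 of the 39 genes, without *VEGFA*, *NDRG1* and *BNIP3L*. At least 1 match was found for 30 of these 36 genes (83.3%), against 65.3% of genes with a passing probe and 47.4% of all genes in the table. Among windows, 60.6% of 66 held a match, against 55.5% of those of passing genes and 43.2% of all. A gene with more starts has more windows in which to match. Of the genes lower past 1.5-fold with either siRNA, 13 of 14 had a match, as did 15 of the 19 other passing genes. That split uses the ratios described above, within a list that holds known HIF targets. Whether a match bears on a ratio was not tested.

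The windows of 4 genes with 1 listed start follow, 5′ to 3′ along the gene, with matches in capitals: *BNIP3* (chr10:131981924-131982173, minus strand, 6 matches), *ANGPTL4* (chr19:8363905-8364154, plus strand, 1 match), *PGK1* (chrX:78103998-78104247, plus strand, 3 matches) and *P4HA2* (chr5:132227092-132227341, minus strand, 0 matches).
BNIP3: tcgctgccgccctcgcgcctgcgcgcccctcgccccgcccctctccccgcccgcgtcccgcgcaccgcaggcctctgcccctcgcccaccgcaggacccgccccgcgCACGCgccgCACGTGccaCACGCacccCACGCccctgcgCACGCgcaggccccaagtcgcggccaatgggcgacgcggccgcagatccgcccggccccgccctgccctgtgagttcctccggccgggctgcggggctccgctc
ANGPTL4: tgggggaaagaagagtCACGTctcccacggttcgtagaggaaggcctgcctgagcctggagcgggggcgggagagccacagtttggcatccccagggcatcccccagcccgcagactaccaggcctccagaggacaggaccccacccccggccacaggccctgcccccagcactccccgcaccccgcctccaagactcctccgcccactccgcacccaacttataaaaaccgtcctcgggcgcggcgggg
PGK1: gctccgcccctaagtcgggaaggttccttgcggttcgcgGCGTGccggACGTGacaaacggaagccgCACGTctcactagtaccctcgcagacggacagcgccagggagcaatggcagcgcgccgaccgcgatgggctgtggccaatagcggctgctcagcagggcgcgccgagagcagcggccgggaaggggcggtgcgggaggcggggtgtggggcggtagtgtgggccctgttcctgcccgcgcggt
P4HA2: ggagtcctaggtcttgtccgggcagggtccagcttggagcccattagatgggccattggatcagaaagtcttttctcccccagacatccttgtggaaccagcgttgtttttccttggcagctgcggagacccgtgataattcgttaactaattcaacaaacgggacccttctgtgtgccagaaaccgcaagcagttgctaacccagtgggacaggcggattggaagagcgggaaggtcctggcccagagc
Among these 4 genes the number of matches did not follow the order of the ratios, and 4 windows are too few to say more. *P4HA2*, with no match in this window, had ratios of -0.68 and -0.68, and *PGK1*, with 3, had -0.35 and -0.18. *BNIP3* and *ANGPTL4*, with 6 matches and 1 match, were both past 1.5-fold lower with both siRNAs. A match is only a run of letters, and binding was not measured.

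**Figure D5:**
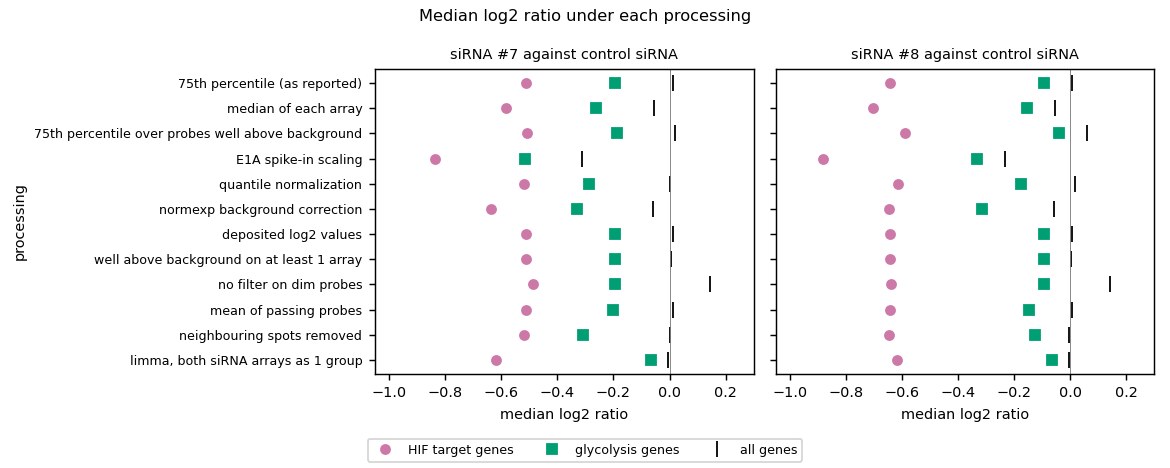
Median log2 ratio of the HIF target genes (circles), the glycolysis genes (squares) and all genes (ticks) under each way of processing the arrays; the last row uses both siRNA arrays as 1 group and is the same in both panels. The HIF target median lies below that of all genes in every row, from -0.84 to -0.49 with siRNA #7 and from -0.88 to -0.59 with siRNA #8.

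The medians of the HIF target and glycolysis genes against control siRNA kept their direction under every processing tried. For the glycolysis genes the range was -0.52 to -0.065 with siRNA #7 and -0.33 to -0.039 with siRNA #8, and the lowest values came with the spike-in scaling, which lowered all genes. In limma, with both siRNA arrays as 1 group of 2 against the control array, the HIF target median was -0.62 and the glycolysis median -0.065. The error in that fit came only from differences between the siRNA #7 and siRNA #8 arrays, with 1 control array. It does not measure the spread between replicates, so no p-value or count of genes is given from it.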

How the data were processed

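HCT116 cells given control siRNA, siRNA #7 or siRNA #8 were measured on 1 SurePrint G3 array each (62976 spots, all on 1 slide). Spot intensities were deposited as read by Agilent Feature Extraction 11.5.1.1, background-subtracted and unscaled. The authors also deposited log2 values of 21189 probes, with each row centred on its median over the arrays, which were used as an alternative. Spots flagged as outliers were dropped and spots of a probe averaged. Each array was set equal on its 75th percentile over gene probes. A probe passed if it was well above background on all 3 arrays (flag set on at least 50% of its spots) and at or above the 20th percentile on at least 2, and the brightest passing probe stood for its gene. Of 50599 gene probes, 18121 passed. Names came from transcript accessions without version (RefSeq, GRCh38.p14), which named 30000 probes. The pooled spot-to-spot SD of probes printed 10 times was 0.15 to 0.18 on the log2 scale, and the number of arrays limits the precision. Nothing states whether the samples are separate cultures of a repeated experiment.

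The genes and lists were chosen with earlier results of these data known. A listed gene was given on every array if it was past 1.5-fold the same way with both siRNAs, past 2-fold with either, not passing, or stood for a step read by several probes. Genes of other lists were named if past 2-fold with either siRNA. Some further listed genes were given by array to complete a step, and were chosen after their values were seen. Alternatives changed the scaling, background correction (normexp, offset 50, on median spot signals because the files hold no mean), filter, threshold, probe choice and local brightness. limma 3.58.1 in R 4.3.3 took both siRNA arrays as 1 group. Other steps used Python 3.11.15, numpy 2.4.6 and pandas 2.3.3, and were tested on simulated data. The siRNA sequences came from the supplementary material of the study.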

Additional observations from a re-analysis of the deposited data

How the results depend on the processing

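No paired analysis was possible because only 1 array was run per siRNA. The slide could not be fitted as a block, since all 3 arrays are on 1 slide. The medians of all 36 genes, the glycolysis genes and the HIF targets, the only sets recomputed, kept their direction against control siRNA, while that of the 36 genes in siRNA #8 against siRNA #7 lay between -0.066 and 0.054; the causes of the moves below were not tested, except that spike-in scaling shifts every ratio by -0.32 with siRNA #7 and -0.24 with siRNA #8, which is more than the medians above 0 given for the 7 later glycolysis genes, the other isozymes and all genes, so these turn below 0. With spike-in scaling the medians of all 36 genes, the glycolysis genes and the HIF targets were -0.58, -0.52 and -0.84 with siRNA #7 and -0.64, -0.33 and -0.88 with siRNA #8. With normexp the median of all 36 was -0.43 with siRNA #7, and that of the glycolysis genes -0.31 with siRNA #8. The count of genes past 2-fold lower with siRNA #7 (2) was 6 with the spike-in, 1 with normexp, 1 after removal of local brightness and 9 at 1.5-fold. With siRNA #8 it (3) was 8 with the spike-in, 1 with the percentile over probes well above background, 1 with quantile normalization, 5 with normexp and 14 at 1.5-fold. At 1.5-fold, 18 were lower with siRNA #7 under the spike-in. The spike-in shift also raised the share of all genes past these thresholds. Past 2-fold lower it was then at least 0.045 with siRNA #7 and 0.055 with siRNA #8. Past 1.5-fold lower it was at least 0.225 with siRNA #7. For the other scalings, corrections and filters no such share was computed, so their counts cannot be set against the shares given above. The count past 1.5-fold higher with siRNA #7 (2) was 0 with the array median, the spike-in and normexp, and 1 with quantile normalization and after removal of local brightness. With siRNA #8 it was 1 when passing probes were averaged. For siRNA #8 against siRNA #7, 1 gene was 2-fold lower after removal of local brightness, and 4 at 1.5-fold. There, 1 was 2-fold higher with the filter set to at least 1 array or absent, and 1 at 1.5-fold. Past 1.5-fold higher, 0 were found with normexp and 2 with either looser filter and after removal of local brightness. In limma, with both siRNA arrays as 1 group, the median of all 36 genes was -0.28.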

Other observations

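Of the 7 genes of the pentose phosphate pathway, which branches from glycolysis at glucose 6-phosphate, all 7 had a passing probe, with median log2 ratios to control of -0.09 (siRNA #7) and -0.03 (siRNA #8). Past 1.5-fold, 1 of 7 was higher with siRNA #7, against 7.51% of all genes, and none was lower with either siRNA, against 6.95% and 10.2%. *PCK2*, the mitochondrial enzyme that makes phosphoenolpyruvate, read 65.6 in control cells, 165.7 in siRNA #7-treated cells and 52.3 in siRNA #8-treated cells. It was high on the siRNA #7 array alone, with log2 ratios of 1.66 ± 0.23 and -0.03 ± 0.26, and another *PCK2* probe was below the detection flag on all 3 arrays.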
